A study of Mus musculus with 35 samples.

Results

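Gm5662, Gm8300, Gm2022 and Gm5039 are mouse genes whose coding sequences closely resemble that of Eif1a, a gene for a translation initiation factor. They were taken by name, as 4 of the 24480 genes of the count table, and had been chosen by their counts, which were high in water-injected 2-cell (2C) embryos and near 0 in water-injected zygotes. That rise is therefore given as a description, without a test. The samples were wild-type C57BL/6NRj embryos in 4 groups. "Ctrl water zygote" comprised 10 single zygotes and "Kdm5b zygote" another 10, collected 17 h after ovulation. "Ctrl water 2C" comprised 9 samples and "Kdm5b 2C" 6 samples, collected 5.5 to 8 h after division. Controls received water, and the Kdm5b groups received Kdm5b-yfp mRNA at 1150 ng/µl, which encodes a histone H3K4 demethylase fused to a yellow fluorescent protein. Both stages were collected 5 to 6 h after injection, the 2C embryos having been injected after division and not as zygotes. Of the Ctrl water 2C samples 6 were single intact embryos, replicate 7 was a pool of blastomeres from 2 embryos, and replicates 8 and 9 were pools from 3. Of the Kdm5b 2C samples 5 were intact and replicate 6 was a pool from 3 embryos. Zygotes were frozen and thawed before they were grown to 2C, and libraries were made on separate days, so that freezing and, as far as the days followed stage, the day cannot be told apart from stage. The depth of a sample, as the sum of its gene counts, was 12597267 to 17797581 in Ctrl water zygotes, 11627845 to 16632074 in Kdm5b zygotes, 8705584 to 12877962 in Ctrl water 2C, and 11248797 to 13117592 in Kdm5b 2C.

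The factor eIF1A binds the small ribosomal subunit and, with eIF1 and the eIF2 complex, helps the initiator tRNA find the start codon. Beside the X-linked Eif1ax and the autosomal Eif1a, the mouse has a cluster of Eif1a-like genes on chromosome 12. Genes of this kind are known among the transcripts made when the embryo's genome is first activated at the 2-cell stage, together with the endogenous retrovirus MERVL.

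The 4 genes lay on chromosome 12 of GRCm38 between 87514316 and 88321762. Gm8300 (87514316 to 87518265) and Gm2022 (87892834 to 87896722) were on the plus strand with 2 exons each. Gm5662 (88270635 to 88274497, 2 exons) and Gm5039 (88320122 to 88321762, 1 exon) were on the minus strand. In the GENCODE M21 transcripts each had a coding sequence of 435 bases, stop codon included. These sequences differed at 18 of the 435 positions, and between any pair at 7 to 13 positions (97.0% to 98.4% identity). Gm5039 was the most distant, at 97.0% to 97.5% identity to the others. The stretch from base 271 to base 420 of the coding sequence held 10 of the 18 positions and is shown because it holds most of the bases by which fragments of the coding sequence can be told apart. It is read 5′ to 3′ on the coding strand, with capitals at the positions where the genes differ. The stretches are chr12:88271569-88271718 (minus strand) for Gm5662, chr12:87517167-87517316 (plus strand) for Gm8300, chr12:87895640-87895789 (plus strand) for Gm2022 and chr12:88321062-88321211 (minus strand) for Gm5039.
Gm5662: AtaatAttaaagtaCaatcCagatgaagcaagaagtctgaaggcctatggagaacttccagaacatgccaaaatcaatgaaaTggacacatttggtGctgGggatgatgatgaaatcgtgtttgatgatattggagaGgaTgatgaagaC
Gm8300: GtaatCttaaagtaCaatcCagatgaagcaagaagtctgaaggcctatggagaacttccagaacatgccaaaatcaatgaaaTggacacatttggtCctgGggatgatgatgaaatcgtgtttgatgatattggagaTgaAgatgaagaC
Gm2022: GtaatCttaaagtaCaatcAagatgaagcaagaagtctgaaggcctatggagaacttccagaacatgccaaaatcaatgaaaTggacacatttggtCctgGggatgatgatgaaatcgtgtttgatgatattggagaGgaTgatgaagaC
Gm5039: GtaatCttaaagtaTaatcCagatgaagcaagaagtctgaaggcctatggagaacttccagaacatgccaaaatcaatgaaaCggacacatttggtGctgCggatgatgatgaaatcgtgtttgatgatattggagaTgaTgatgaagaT
Gm5039 alone carried a base of its own at 4 of these 10 positions, Gm5662 at 2, and Gm8300 and Gm2022 at 1 each. At the other 2 positions the genes fell into pairs.

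Fragments that mapped to several places were not counted, so the share of each transcript that is found nowhere else sets how much of it could be counted. Windows of 91 bases, the length of a 100-base read after trimming of 8 bases at its start and 1 at its end, were looked up in all other genes' GENCODE transcripts. Of the windows of Gm5039, 1681 of 1766 (95.2%) occurred in no other gene, and of Gm8300 1555 of 1783 (87.2%). Gm5662 had 675 of 1750 such windows (38.6%), and shared 966 with Gm2016, a relative that lies next to Gm2022. For Gm2022 the annotation used here held the coding sequence alone (435 bases, against 1822 exon bases in the counting annotation), of which 94 of 345 windows occurred in no other gene. The coding sequences of Gm5662, Gm8300 and Gm5039 had 144, 168 and 269 of 345. Over the coding sequence Gm2022 and Gm5662 thus had fewer windows of their own than Gm8300 and Gm5039, and differences in level between the genes are to be read with these shares. For Gm5662, Gm8300 and Gm5039 most of the windows found in no other gene lay outside the coding sequence. Windows were looked up in transcripts and not in the whole genome, and the rest of Gm2022 was missing from the lookup. The shares can therefore be too high. Paired fragments are longer than 1 window, so the shares are approximate.

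**Figure D1:**
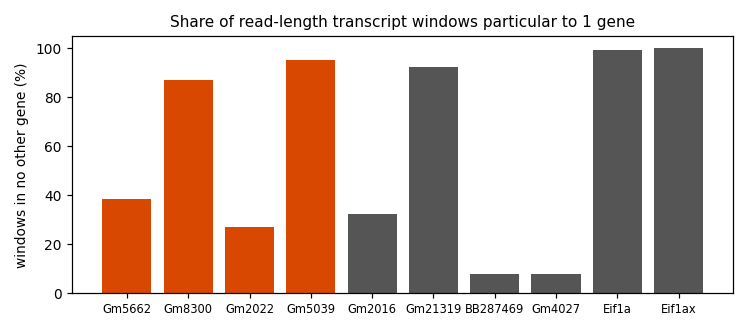
The share of 91-base windows of each gene's longest GENCODE transcript that occur in no other gene's transcripts (bars, percent), for the 4 genes (orange) and their relatives (grey). Gm8300 and Gm5039 stand above 87%, Gm5662 at 38.6%, Gm2022 (coding sequence alone) below it, and BB287469 and Gm4027, which share 1618 windows with each other, near 8%.

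In zygotes 3 of the 4 genes were almost absent. Gm5662 had 9 counts over the 10 Ctrl water zygotes, of which 7 had none, and 4 counts over the 10 Kdm5b zygotes, of which 8 had none. Gm8300 had 32 counts in Ctrl water zygotes, 18 of them in replicate 5, and 5 counts in Kdm5b zygotes, all in replicate 6. Gm2022 had 10 counts in Ctrl water zygotes and 6 in Kdm5b zygotes, the latter again all in replicate 6. Gm5039 was the exception, with counts in all 20 zygotes. Its level, in counts per 1000000 of the TMM-scaled library without Kdm5b (CPM), ran from 0.140 to 2.42 (median 0.932) in Ctrl water zygotes and from 0.368 to 5.67 (median 1.21) in Kdm5b zygotes.

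At the 2C stage all 4 genes were counted in all 15 samples. Gm5662 stood at 22.1 to 116 CPM (median 47.4) in Ctrl water 2C and at 2.19 to 52.5 CPM (median 36.6) in Kdm5b 2C. Gm8300 stood at 11.4 to 85.7 CPM (median 43.8) and at 7.16 to 32.1 CPM (median 16.7), respectively. In each gene the lowest Ctrl water 2C sample was above the highest Ctrl water zygote, and the injected and control 2C samples overlapped.

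Gm2022 had the lowest level, 2.19 to 42.1 CPM (median 25.4) in Ctrl water 2C and 2.92 to 27.0 CPM (median 10.7) in Kdm5b 2C. Gm5039 had 6.56 to 59.5 CPM (median 35.9) in Ctrl water 2C and 4.27 to 40.6 CPM (median 21.4) in Kdm5b 2C. Gm5039 was the gene in which the injected stages met, since the lowest Kdm5b 2C sample (4.27 CPM) was below the highest Kdm5b zygote (5.67 CPM). The mean of the controls went from 0.0571 CPM ± 0.105 in zygotes (SD, n = 10) to 56.3 CPM ± 35.3 at 2C (SD, n = 9) for Gm5662, and from 0.209 CPM ± 0.353 to 47.9 CPM ± 24.5 for Gm8300. For Gm2022 it went from 0.0655 CPM ± 0.149 to 23.5 CPM ± 13.0, and for Gm5039 from 1.04 CPM ± 0.730 to 34.2 CPM ± 17.6. The fitted log2 fold change of the controls was 9.75 for Gm5662, 8.35 for Gm2022, 7.83 for Gm8300 and 5.06 for Gm5039. For Gm5662, Gm2022 and Gm8300 it depends on the small count that the fit adds to values near 0. As background, 9.2% of 11968 genes tested in the controls passed an adjusted p of 0.05 and a log2 fold change of 1 upward (1101 genes, edgeR), and in 6.63% of genes tested the groups did not overlap in this direction. Nothing is read from either share, since this contrast chose the genes.

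**Figure D2:**
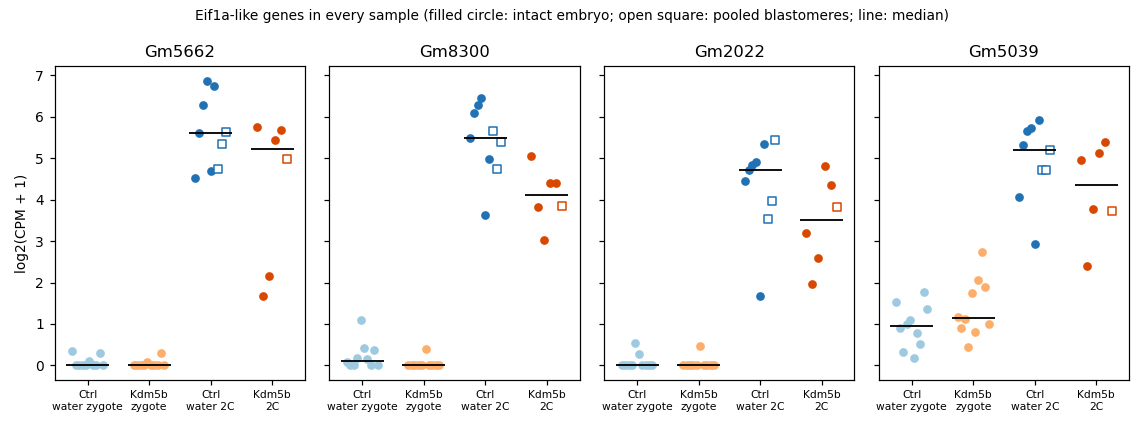
The level of each gene, log2(CPM + 1), in every sample of the 4 groups. Circles are intact embryos, open squares pools of blastomeres and lines medians. Most zygotes lie near 0 except for Gm5039 and for 1 Ctrl water zygote (replicate 5, 1.15 CPM) in Gm8300, all 2C samples lie above 1.5 on this scale, and Ctrl water 2C and Kdm5b 2C samples overlap in each gene.

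Per length, in transcripts per 1000000 (TPM), the order in Ctrl water 2C was Gm5662 (median 72.9 TPM, 36.6 to 184), Gm8300 (71.2 TPM, 18.7 to 134), Gm5039 (60.8 TPM, 12.3 to 112) and Gm2022 (41.7 TPM, 3.68 to 66.6). The medians stood 2494th, 2549th, 2863rd and 3693rd among all genes. Neighbours in this order were compared within samples on the log2(TPM + 1) scale by an exact two-sided sign-flip permutation test, 6 comparisons over both groups. Gm5662 exceeded Gm8300 in 6 of 9 samples (difference 0.22 ± 0.91, SD, exact permutation p = 0.504, adjusted 0.605), and Gm8300 exceeded Gm5039 in 7 of 9 (0.32 ± 0.68, exact permutation p = 0.203, adjusted 0.605). Gm5039 exceeded Gm2022 in 7 of 9 (0.76 ± 0.59, exact permutation p = 0.0156, adjusted 0.0938). None of these passed after adjustment, and the order was thus not resolved beyond the spread between samples. In Kdm5b 2C the medians ran from Gm5662 (54.7 TPM) through Gm5039 (39.7 TPM) and Gm8300 (25.3 TPM) to Gm2022 (16.5 TPM), with adjusted p from the exact permutation test of 0.605 to 0.844 (n = 6). The smallest p that 6 samples allow is 0.0312, so that no single pair of neighbours in this group could have passed after adjustment over 6 comparisons, and these tests could not resolve the order.

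Between control embryos the levels varied several-fold. The highest Ctrl water 2C sample was 5.24 times the lowest for Gm5662, 7.52 times for Gm8300, 9.07 times for Gm5039 and 19.3 times for Gm2022. Replicate 5 decided these ratios for Gm8300, Gm5039 and Gm2022. Without it the ratio of Gm5662 stayed at 5.24 and was the widest, and those of Gm8300, Gm5039 and Gm2022 were 3.33, 3.82 and 4.01. The coefficients of variation were 62.7% for Gm5662, 51.1% for Gm8300, 51.4% for Gm5039 and 55.4% for Gm2022, against a median of 39.4% over all 12244 genes tested, and were higher than in 72.7%, 63.1%, 63.4% and 67.1% of them. Among the 7254 genes that averaged 100 counts or more, with a median of 26.8%, these shares were 96.2%, 91.4%, 91.7% and 93.8%. Without replicate 5 the coefficients of Gm8300, Gm5039 and Gm2022 were 41.3%, 40.3% and 42.0%. These were higher than in 53.3%, 52.2% and 54.1% of all genes tested, near the middle. Among those with 100 counts or more they were higher than in 80.9% or more, so these 3 genes still varied more than most genes counted that well. Replicate 5 had the lowest value of Gm8300, Gm2022 and Gm5039, and replicate 1 that of Gm5662. The summed level of the 4 genes was 44.9 CPM in replicate 5 and 282 CPM in replicate 4, with a median of 167 CPM. Replicate 5 was also the sample with the fewest counts (8705584). Of the Ctrl water 2C samples it had the lowest sum of the other 2-cell genes listed below (733 CPM) and of the cumulus markers listed below (14.0 CPM). Whether these had a part in its low levels was not tested.

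Intact control embryos and pools of blastomeres overlapped in each gene. Gm5662 had a median of 61.8 CPM in 6 intact embryos and 39.6 CPM in 3 pools, Gm8300 55.5 and 41.1 CPM, Gm2022 26.4 and 14.7 CPM, and Gm5039 44.0 and 25.2 CPM. Mean log2(CPM + 1) was higher in intact embryos by 0.54, 0.22, 0.01 and 0.05, and none of the 4 differences passed a two-sided exact permutation test (adjusted p = 0.929 for each). The smallest p this design allows is 0.0238.

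Among the 9 Ctrl water 2C samples several of the genes varied together, and with MERVL-int, the internal part of the MERVL retrovirus. How many of all genes vary as closely with MERVL-int or with one another was not computed. The relations are therefore not shown to be particular to these genes. MERVL-int ran from 18847 to 122498 CPM (estimated counts over the same library totals) in Ctrl water 2C (median 52820) and from 12134 to 49846 in Kdm5b 2C (median 33080). On the log2(CPM + 1) scale, Gm5662 followed MERVL-int with Pearson r = 0.97 (exact permutation p = 2.76e-05, adjusted 0.000276 over 10 relations) and Spearman rho = 0.97 (exact permutation p = 0.000165, adjusted 0.000827). Leaving out the 2 samples farthest from the MERVL-int median left r at 0.97. Gm5039 gave r = 0.92 (exact permutation p = 6.61e-05, adjusted 0.000331), rho = 0.97 (exact permutation p = 0.000165, adjusted 0.000827) and 0.93 without those 2 samples. The sample with the most MERVL-int, replicate 4, had the most Gm5662 and Gm8300, and the sample with the least, replicate 5, had the least of 3 of the genes.

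Gm2022 gave r = 0.74 with MERVL-int (exact permutation p = 0.0147, adjusted 0.0295; rho = 0.77, adjusted 0.0356; r without 2 samples 0.74). For Gm8300 the relation did not pass (r = 0.63, exact permutation p = 0.0716, adjusted 0.0896; rho = 0.58, adjusted 0.154), and r fell to 0.45 without the 2 samples. Among the genes themselves, Gm2022 with Gm5039 (r = 0.88, adjusted exact permutation p = 0.0277), Gm5662 with Gm5039 (r = 0.85, adjusted exact permutation p = 0.00164) and Gm5662 with Gm2022 (r = 0.65, adjusted exact permutation p = 0.0496) passed. The rho of these pairs was 0.77, 0.93 and 0.78 (adjusted exact permutation p = 0.0356, 0.0025 and 0.0356), and r without the 2 farthest samples was 0.79, 0.94 and 0.54. The 3 pairs with Gm8300 did not (r = 0.48 to 0.73, adjusted exact permutation p = 0.0675 to 0.185), and Gm8300 with Gm5662 fell to r = 0.01 without the 2 farthest samples. All values of a sample share its library and its scaling. Within the 6 control samples with index numbers 89 to 96, r with MERVL-int was 0.98 for Gm5662, 0.91 for Gm5039, 0.85 for Gm2022 and 0.72 for Gm8300, and only the first 2 passed (adjusted exact permutation p = 0.0278 and 0.037). By rank Gm5662 alone passed (adjusted exact permutation p = 0.0278), and rho did not for Gm5039 (0.89, adjusted exact permutation p = 0.111). Without the 2 farthest samples r was 0.99 for Gm5662, 0.97 for Gm5039 and 0.87 for Gm2022, and turned to -0.39 for Gm8300. Of the gene pairs, Gm5662 with Gm5039 alone passed within these 6 samples (r = 0.83, adjusted exact permutation p = 0.037). Gm2022 with Gm5039 (r = 0.95, adjusted exact permutation p = 0.0556) and Gm5662 with Gm2022 (r = 0.76, adjusted exact permutation p = 0.088) did not, and by rank no pair did. The other 3 control samples, with index numbers 81 to 88, were too few for a value.

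In Kdm5b 2C, replicates 2 and 3 stood apart from the other 4 samples in Gm5662, in the sum of the 4 genes and in MERVL-int. Their Gm5662 levels were 2.19 and 3.43 CPM, against 30.7 to 52.5 CPM in the other 4 samples, and the summed levels of the 4 genes were 22.4 and 28.2 CPM, against 69.6 to 131 CPM. They were also the lowest in Gm2022 (2.92 and 5.04 CPM, with 8.16 CPM in the next sample). In the other 2 genes replicate 6 stood beside them, with 13.3 CPM of Gm8300 against 13.0 and 7.16 CPM, and with 12.3 CPM of Gm5039 against 4.27 and 12.6 CPM. Replicates 2 and 3 had the least MERVL-int of all 2C samples, 12134 and 12872 CPM. With 2 samples apart and 4 others, no pooled correlation is given for this group. Kdm5b made up 8.27% and 9.39% of their gene counts, the first below and the second within the range of the other 4 samples (9.09% to 15.8%), and their totals were 11248797 and 11688812 counts, the first of them the lowest of the group. Their sums of the other 2-cell genes listed below were the lowest of the group, 865 and 939 CPM against 986 to 1362 CPM. Replicate 2 had the highest sum of the cumulus markers listed below (31.3 CPM, next 19.5 CPM), and replicate 3 had 15.0 CPM. Oocyte and embryo markers summed to 5522 and 6065 CPM, against 4092 to 6003 CPM. Whether these quantities had a part in the low levels was not tested.

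**Figure D3:**
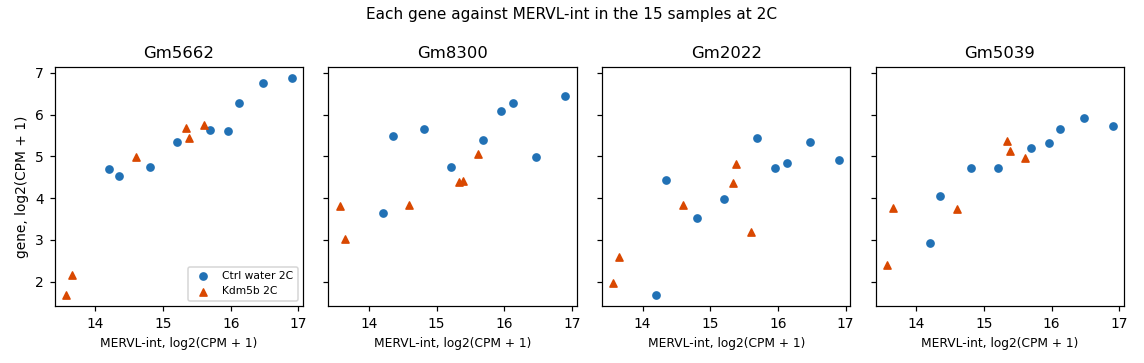
Each gene's log2(CPM + 1) against that of MERVL-int in the 9 Ctrl water 2C (blue circles) and 6 Kdm5b 2C samples (orange triangles). Gm5662 and Gm5039 rise with MERVL-int in the controls, Gm8300 scatters more, and Kdm5b 2C replicates 2 and 3 are the triangles farthest to the left.

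The comparison of Kdm5b 2C with Ctrl water 2C asks whether extra Kdm5b mRNA changed these transcripts within hours. A count is a share of the RNA sequenced from whole embryos or pools, so that fewer blastomeres with a transcript and less of it per blastomere cannot be told apart. All 4 estimates were lower in the injected embryos, and none passed an adjusted p of 0.05 with a log2 fold change beyond 1 (edgeR quasi-likelihood test over 12244 genes, Benjamini-Hochberg adjustment). The Ctrl water 2C values used as the reference also took part in choosing the genes, as being high there. That choice by itself favours lower estimates after injection, so these tests are not independent of it. All 4 genes were read from the same samples, and 3 of their 6 pairs varied together over all 9 controls (1 pair within the 6 of index numbers 89 to 96), so their common sign is not 4 separate observations. In this fit Gm8300 differed most, with a mean of 17.7 CPM ± 8.61 (SD, n = 6) against 47.9 CPM ± 24.5 (SD, n = 9) and a log2 fold change of -1.41 (SE 0.36, 95% interval -2.17 to -0.66). Its unadjusted p in edgeR was 0.000832, the 42nd smallest, and its adjusted p 0.234. All 6 injected samples were below the control median of 43.8 CPM, but 5 of them were above the lowest control, replicate 5 at 11.4 CPM. In none of the 4 genes were all injected samples below all controls, as they were for 0.147% of all genes.

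Gm2022 had a log2 fold change of -0.88 (SE 0.48, 95% interval -1.88 to 0.13, adjusted p = 0.606 in edgeR), with 5 of 6 injected samples below the control median. Gm5662 had -0.87 (SE 0.53, 95% interval -1.97 to 0.23, adjusted p = 0.662), with 4 of 6 below. Gm5039 had -0.59 (SE 0.43, 95% interval -1.49 to 0.30, adjusted p = 0.745), with 5 of 6 below. These intervals include 0 as well as falls of more than 1 on the log2 scale, so that neither was resolved with 9 and 6 samples. In most alternatives for which an interval was computed, the interval still included 0. It left out 0 for Gm5662 with the replicate number as a block (-3.08 to -0.03) and in a single fit of all 35 samples (-1.78 to -0.003). The same held for Gm2022 without Ctrl water 2C replicate 5 (-1.88 to -0.17) and without Kdm5b 2C replicate 4 (-2.31 to -0.20). No interval was computed with limma voom or DESeq2's Wald test, and in limma voom Gm5662 had an unadjusted p of 0.0275. None of these passed after adjustment. Over all genes, 0.00817% were called lower (1 gene, Obox7, a homeobox gene named here after its value was seen, log2 fold change -1.07, adjusted p = 0.0287) and 0 higher. At an unadjusted p of 0.05, 1 of the 4 genes was lower against 4.91% of all genes. A lower estimate was found for 50.3% of all genes.

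Gm8300 passed both thresholds in 4 of 11 alternative analyses, not counting those that left out 1 sample each, in none of which it passed. These fits too use control 2C values that took part in choosing the genes. With DESeq2's Wald test it had a log2 fold change of -1.42 (adjusted p = 0.0073), where 0.119% of all genes with an adjusted p were called lower. In a single edgeR fit of all 35 samples it had -1.44 (adjusted p = 0.046), with 0.399% of all genes called lower. Index numbers were unevenly spread, with 3 Ctrl water 2C and 5 Kdm5b 2C samples at 81 to 88 and 6 and 1 at 89 to 96. Within 81 to 88 Gm8300 stood at 43.8 to 76.2 CPM in the 3 controls and at 7.16 to 32.1 CPM in the 5 injected samples, without overlap, as for 5.03% of all genes in these 8 samples. There edgeR gave -1.85 (SE 0.38, adjusted p = 0.0344), with 0.531% of all genes called lower. With the block of 8 index numbers as a covariate the value was -1.55 (adjusted p = 0.0391 in edgeR), with 0.384% called lower. Within 89 to 96 the single injected sample had 20.1 CPM of Gm8300, inside the control range of 11.4 to 85.7 CPM. The control pools all lay at 89 to 96 and the injected pool at 81 to 88. Index block and kind of collection are thus not fully separate in these 2 fits. Gm5662, Gm2022 and Gm5039 did not pass in any alternative. Within 81 to 88 the means were 48.6 and 26.3 CPM for Gm5662, 24.5 and 11.3 CPM for Gm2022 and 34.5 and 18.6 CPM for Gm5039 in control and injected samples.

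**Figure D4:**
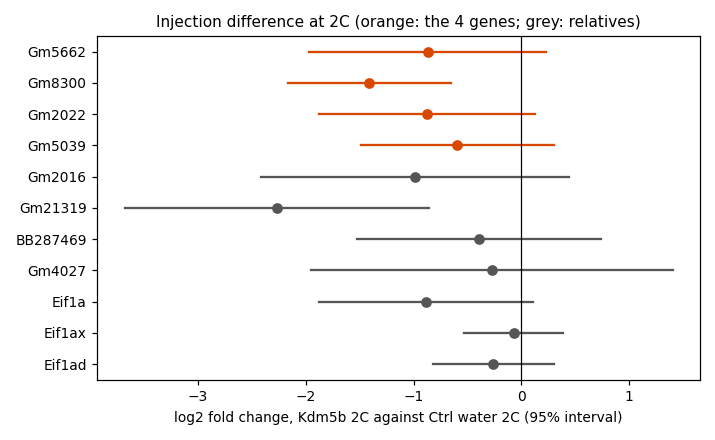
Fitted log2 fold change of Kdm5b 2C against Ctrl water 2C (points) with 95% intervals (lines). The 4 genes are orange, and their relatives and Eif1ad are grey. The intervals of Gm8300 and Gm21319 lie below 0 before adjustment over all genes, and those of the other genes shown include 0.

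The genes were chosen by their counts in the water-injected groups and not in Kdm5b 2C embryos or Kdm5b zygotes. Earlier results of these data were known at the time, however, so this comparison is not fully independent of the choice. Gm5662, Gm8300 and Gm2022 entered this comparison only through the 2C samples, since none of the 10 zygotes reached the level the filter on low counts asks for, so for them the rise is a description without a test. In Gm5662, Gm8300 and Gm2022 the lowest Kdm5b 2C sample was above the highest Kdm5b zygote, as for 12.1% of the 12390 genes tested, and in Gm5039 the groups met. Gm5662 went from a mean of 0.0288 CPM to 30.3 CPM (fitted log2 fold change 9.70), Gm8300 from 0.0315 to 17.7 CPM (8.69) and Gm2022 from 0.0378 to 12.7 CPM (8.01). These folds depend on the count the fit adds and on single zygotes. Without Kdm5b zygote replicate 6, which held all zygote counts of Gm8300 and Gm2022 in this group, they were 10.83 for Gm8300 and 10.35 for Gm2022, and without replicate 9 that of Gm5662 was 10.81. Gm5039, which 8 of the 10 zygotes carried above that level, went from 1.93 to 22.3 CPM (3.55, SE 0.46, adjusted p = 3.68e-07 in edgeR), with 10.5% of all genes tested called higher.

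Between the zygote groups the filter left Gm5039 alone, which had a mean of 1.93 CPM ± 1.60 in Kdm5b zygotes against 1.04 CPM ± 0.730 in Ctrl water zygotes (SD, n = 10 each). The groups overlapped, and the log2 fold change of 0.89 (SE 0.46, 95% interval -0.05 to 1.83) did not pass (adjusted p = 0.507 in edgeR over 11933 genes). The Kdm5b mean includes replicate 8 at 5.67 CPM, the highest of its group, and no fit between the zygote groups left it out. Without it the fold of Gm5039 between the Kdm5b stages was 3.89 and not 3.55. The same zygote enters the interaction given below. In this comparison 0.00838% of all genes were called higher, namely AU018091, also named after its value was seen. An interaction term of stage and injection, fitted over all 35 samples, compared the injection differences of both stages. For Gm5039 it was 1.49 log2 units lower at 2C (interaction -1.49, p = 0.0252, adjusted p = 0.457 in edgeR over 13778 genes), which did not pass. For Gm5662, Gm8300 and Gm2022 no value is given, since their zygote counts were too few for an injection difference.

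A search with the 4 coding sequences over all GENCODE transcripts found 21 genes that matched at least 80% of their length, the 4 genes included. Of these 10 were in the count table and 11 were not among its rows. Beyond the 4, the count table held Gm2016, Gm21319, BB287469 and Gm4027, all on chromosome 12 at 96.6% to 99.1% identity, as well as Eif1a (94.2% to 95.2%) and Eif1ax (84.8% to 85.1%). Gm2016 at 99.1% was closest to Gm5662. Gm13078 and Gm16381 had been listed by hand as Eif1a-like but matched none of the coding sequences and are not counted among the relatives here.

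All 4 relatives were nearly absent in zygotes, with summed levels of at most 0.700 CPM in any zygote, and at 2C the sum was 14.0 to 64.6 CPM in controls (median 26.4) and 1.35 to 27.5 CPM after Kdm5b-yfp injection (median 16.3). Gm21319 was the highest in the controls, with 4.23 to 29.1 CPM (median 11.6). In Kdm5b 2C it had 0.101 to 8.44 CPM (median 1.78), and all 6 samples were below the control median while the groups overlapped. Its log2 fold change was -2.27 (SE 0.68, 95% interval -3.68 to -0.85), with an unadjusted p of 0.00306 and an adjusted p of 0.277 in edgeR. Gm2016 (-0.99, adjusted p = 0.725), BB287469 (-0.39, adjusted p = 0.895) and Gm4027 (-0.27, adjusted p = 0.965) also had lower estimates that did not pass. BB287469 and Gm4027 share more than 91% of their windows, so their counts come from a small part of each transcript. The median of the 4 relatives was -0.69 and that of the 4 genes -0.87, against -0.0028 over all genes tested. Both sets were read from the same samples, so the relatives are not a separate observation.

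The conventional family members took different courses between the stages. Eif1a, the closest relative outside chromosome 12, had a mean of 0.625 CPM ± 0.524 in Ctrl water zygotes and 7.81 CPM ± 4.71 at 2C (fitted log2 fold change 3.65). After Kdm5b-yfp injection the fitted fold change was 3.20. Eif1a too passed the filter on low counts only through the 2C samples, so both values are given without a test. Eif1ax fell from 99.3 CPM ± 12.1 to 27.3 CPM ± 8.24 in the controls (-1.83, SE 0.16, adjusted p = 5.63e-10 in edgeR) and from 100 CPM ± 9.76 to 25.9 CPM ± 4.13 after injection (-1.94, SE 0.11, adjusted p = 1.13e-12). Eif1ad, which matched none of the coding sequences, showed values of 17.5 CPM ± 3.57 and 16.5 CPM ± 6.11 in the controls (-0.05, 95% interval -0.45 to 0.35). Per length, Eif1ax had a median of 320 TPM in Ctrl water zygotes, where Gm5662, Gm8300 and Gm2022 were at 0 to 0.137 TPM, and 83.1 TPM at 2C, next to 41.7 to 72.9 TPM for the 4 genes. These TPM use the lengths over which fragments were counted, 926 bases for Eif1ax, whose longest GENCODE transcript has 5172 bases, so its level relative to the other genes depends on the annotation. At 2C neither of these 2 family members differed between injected and control samples past the thresholds (Eif1a -0.88, adjusted p = 0.595, and Eif1ax -0.07, adjusted p = 0.968, in edgeR). Nor did Eif1ad (-0.26, adjusted p = 0.847 in edgeR).

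**Figure D5:**
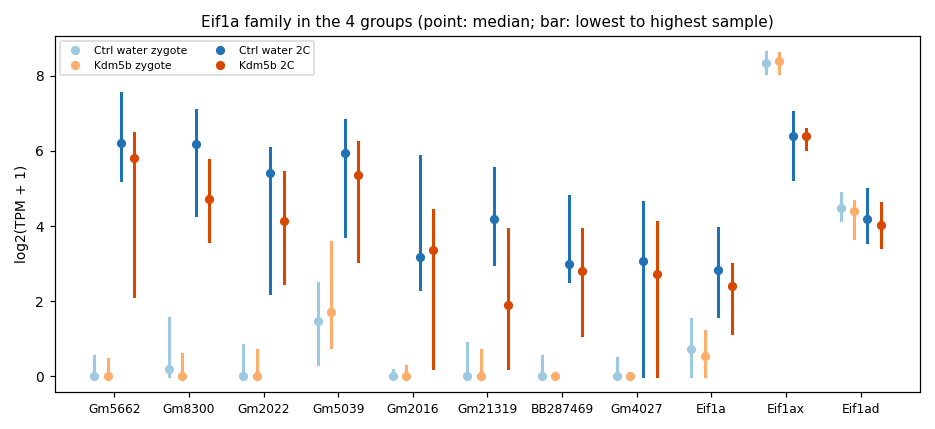
Level per length, log2(TPM + 1), of the 4 genes, their relatives and Eif1ad in the 4 groups. Points are medians, and bars run from the lowest to the highest sample. Eif1ax is highest in zygotes and lower at 2C, where the 4 genes come within its range, and Eif1ad is similar in all groups.

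The partners of eIF1A in initiation were considered as the rest of the pathway. Of 22 listed genes (eIF1, eIF2, eIF3, eIF5 and eIF5B subunits) 21 were tested. Between the stages 0 rose and 9 fell past the thresholds in the controls, and likewise 0 and 9 in Kdm5b embryos, with medians of -0.72 and -0.76 against 0.02 and 0.01 over all genes, of which 13.0% and 16.0% were called lower. The 2 comparisons share no samples. Between injected and control 2C samples none was called, 15 of 21 had lower estimates (50.3% of all genes did) and 3 were lower at an unadjusted p of 0.05 (4.91% of all genes). Eif2s2, which encodes the beta subunit of eIF2, was the lowest in p of these (log2 fold change -0.64, SE 0.15, adjusted p = 0.154 in edgeR), with all 6 injected samples below the control median. The partners too were read from the same samples and are not separate observations.

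Other genes known from the 2-cell stage, 32 listed and 28 tested, included 0 called in either direction between injected and control 2C samples. Of these 26 had lower estimates, against 50.3% of all genes, and 5 were lower at an unadjusted p of 0.05, against 4.91%. Their median was -0.51, against -0.0028 over all genes. Zscan4a, a zinc finger gene of the 2-cell stage, was one of them (31.1 CPM in controls and 9.50 CPM after injection, log2 fold change -1.69, adjusted p = 0.154 in edgeR), while Zscan4d (51.3 and 50.7 CPM, -0.0028, adjusted p = 0.999) and Zfp352 (93.3 and 84.8 CPM, -0.12, adjusted p = 0.964) showed smaller differences. All genes of this list were read from the same samples, so their common sign is not a set of separate observations. The 29 listed genes in the count table summed to 733 to 2050 CPM in Ctrl water 2C (median 1268) and 865 to 1362 CPM in Kdm5b 2C (median 1040). Much of this was Sp110, with medians of 536 and 485 CPM, which stood higher in Ctrl water zygotes (643 CPM). Without it the sums were 298 to 1454 CPM (median 732) and 376 to 830 CPM (median 590).

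All 12 listed oocyte and embryo markers were present in both 2C groups, led by Bmp15, a growth factor of the oocyte, with summed medians of 4750 CPM in controls and 4930 CPM after injection. The 13 markers of cumulus cells, which surround the oocyte, summed to 14.0 to 39.3 CPM in Ctrl water 2C (median 27.9) and 14.2 to 31.3 CPM in Kdm5b 2C (median 17.4), most of it Cyp19a1, and Amh was at 0 in all 2C samples. Blood markers reached at most 3.25 CPM in any 2C sample, and sperm markers at most 5.10 CPM. The part of these markers in the injection difference was not tested.

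Several genes between and beside the 4 were counted at both stages. Snw1, a splicing factor next to Gm8300, had a mean of 243 CPM in Ctrl water zygotes and 120 CPM in Ctrl water 2C (log2 fold change -0.99, adjusted p = 4.3e-07 in edgeR, short of the fold threshold), and had 70.1 CPM in Kdm5b 2C (-0.77 against control 2C, adjusted p = 0.106). Oog1, an oogenesin gene on the other side of Gm8300, had 50.9 CPM in Ctrl water zygotes and 48.4 CPM at 2C. Gm2042 (38.1 and 42.3 CPM) and Gm10436 (478 and 540 CPM), which lie between Gm2022 and Gm5662, and Gm7104 (65.5 and 54.9 CPM), which lies between Gm5662 and Gm5039, were present at both stages. On the far side of Gm5039, Adck1 had 8.36 and 5.11 CPM and 3200001D21Rik had no count in any sample. Genes counted in zygotes thus lay between genes that were near 0 there. Gm1995, beyond Gm2016, had 14 counts over all Ctrl water zygotes and 268 over all Ctrl water 2C samples, with a median of 0.779 CPM and a highest value of 13.6 CPM at 2C. Slirp had at most 1.46 CPM in any sample.

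The genes whose pattern over the 15 samples at 2C was most like that of the 4, after the mean of each group had been subtracted, were Ier5 (mean Pearson r with the 4 genes 0.80), Tdpoz2 (0.78), Fv1 (0.77), Zfp217 (0.77) and Trim43a (0.76). They were the first 5 of 12233 genes outside the Eif1a family. These values rest in part on the low samples described above. Without Kdm5b 2C replicates 2 and 3 and Ctrl water 2C replicate 5 (12 samples, chosen after the data were seen) the mean r was 0.70 for Tdpoz2 (rank 2), 0.66 for Zfp217 (rank 10), 0.60 for Fv1 (rank 54), 0.56 for Ier5 (rank 104) and 0.47 for Trim43a (rank 384). Ier5 is an immediate early response gene, Tdpoz2 a member of a TRAF and POZ domain family, Fv1 a restriction gene against retroviruses that derives from an endogenous retrovirus, Zfp217 a zinc finger gene and Trim43a a tripartite motif gene. They lie on chromosomes 1, 3, 4, 2 and 9. Over all 15 samples the correlation of each of them with Gm5039 was the highest of the 4 (0.85 to 0.93). That with Gm8300 ran from 0.58 to 0.71 and was the lowest except for Fv1, where that with Gm2022 was 0.70 and that with Gm8300 0.71. Within the family, Gm2016 and Gm21319 had a mean r of 0.65, Eif1a 0.62, BB287469 0.58, Gm4027 0.37 and Eif1ax 0.12. Tdpoz2 had no count in any zygote and 4.16 CPM (median) in Ctrl water 2C, while Zfp217 was present in zygotes (43.8 CPM, median) and had 76.4 CPM at 2C.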

How the data were processed

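RNA of 35 samples was sequenced by the authors with a stranded kit for small inputs. They trimmed paired reads with fastp 0.21.0, aligned them to GRCm38 with STAR 2.7.3a, and assigned fragments, by strand, to 24480 RefSeq genes with featureCounts 1.5.1. The authors deposited these raw counts, and a table of estimated counts of 18536 repeats from SalmonTE, which were rounded here. Fragments that map to several places were not counted on genes, by the counter's default. Replicates are separate biological samples per the labels, and 0 columns belonged to no known sample.

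The 4 genes, the gene lists and the tests were chosen with earlier results of these data known. After removal of the Kdm5b row, which holds the injected mRNA, the samples of the groups compared were fitted with edgeR 4.0.16 under R 4.3.3 (TMM, filterByExpr with a minimum count of 10, quasi-likelihood test, Benjamini-Hochberg adjustment over all genes tested). Calls needed an adjusted p below 0.05 together with a log2 fold change beyond 1 in either direction. CPM used TMM factors over all 35 samples, and TPM the deposited exon lengths. Single values were compared by exact permutation tests on log2(value + 1) with scipy and numpy.

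Coding sequences came from the GENCODE M21 transcripts (GRCm38), and relatives were found with blastn at 80% coverage, in place of a planned protein comparison whose table was not used here. The named genes are the 4 genes, their relatives by sequence, Eif1ad, the nearest 2 genes of the count table on each side, the 5 genes most alike over 2C samples, and in each other list the genes past the thresholds with the smallest p, or single examples where none passed, chosen after their values were seen. Alternatives were DESeq2 1.42.0 (size factors and Wald test), limma 3.58.1 voom with quality weights, no filter, only genes averaging 50 counts, inclusion of Kdm5b, a single fit of all samples, the replicate number as a block, the block of 8 index numbers, restriction to intact embryos, and omission of each sample in turn. Between the zygote groups only the fit without a filter was run as an alternative. The stage by injection interaction, and likeness without 3 samples, were added after the data were seen. The tests were tested on simulated data. The number of counts limits the precision. Intervals describe the uncertainty of a fitted difference between groups, and SDs the spread between samples.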

Additional observations from a re-analysis of the deposited data

Results flagged for a closer look

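Each of the 16 combinations of a gene and a group was examined for a sample far from the others of its group (its gap to the nearest sample, over the group's range, above Dixon's critical value for that number of samples), and 6 had one. Chance gives about 1 in 20 for continuous values. That share does not hold for groups made mostly of zeros, as 4 of these 6 were (8 or 9 of 10 zygotes without a count), and a group with counts in a single sample always passes, so nothing is read from the number. All 6 were single zygotes with the highest value of their group, and none was a 2C sample. In Kdm5b zygotes, replicate 9 had 0.227 CPM of Gm5662 (3 counts), replicate 6 had 0.315 CPM of Gm8300 (5 counts) and 0.378 CPM of Gm2022 (6 counts), each of the last 2 being the only zygote of its group with any count, and replicate 8 had 5.67 CPM of Gm5039 (65 counts). In Ctrl water zygotes, replicate 5 had 1.15 CPM of Gm8300 (18 counts) and 0.446 CPM of Gm2022 (7 counts). The same zygote was thus far from the others in both Gm8300 and Gm2022 in each of the injection groups. These values are far below the lowest 2C values of the same genes for Gm5662, Gm8300 and Gm2022 (2.19, 7.16 and 2.19 CPM), and above the lowest 2C value for Gm5039 (4.27 CPM).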

How the results depend on the processing

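No member's difference between Kdm5b 2C and Ctrl water 2C turned its direction in any alternative. The number of the 4 genes past both thresholds was 0, and 1 (Gm8300) with DESeq2's Wald test, a single fit of all 35 samples, the block of 8 index numbers as a covariate, and index numbers 81 to 88 alone. The causes were not tested. Leaving out 1 sample at a time gave 0 throughout, with log2 fold changes of Gm8300 between -1.69 and -1.26 and adjusted p between 0.0883 and 0.385 in edgeR. Over the same omissions Gm5662 ran from -1.11 to -0.63, Gm2022 from -1.25 to -0.67 and Gm5039 from -0.86 to -0.38 (the last without Kdm5b 2C replicate 2, against -0.59). Gm5662 moved from -0.87 to -1.34 with limma voom and to -1.55 with the replicate number as a block, without passing. In these 2 alternatives its fall was larger than that of Gm8300 (-1.30 and -1.46). In the same alternatives the genes called of all tested moved from 0 higher and 1 lower to 15 and 55 in the single fit, 6 and 47 with the covariate, 4 and 66 in index numbers 81 to 88, 1 and 7 with DESeq2, 1 and 2 without a filter, 0 and 2 at a mean of 50 counts, 1 and 1 with the Kdm5b row kept and 0 and 0 in intact embryos, and to at most 1 and 2 when a sample was left out. Between the Kdm5b stages Gm5039 passed in each alternative. Gm5662, Gm8300 and Gm2022 have no zygote at the level of the filter on low counts, and nothing is read from their calls there. There 1988 (no filter), 722 (mean of 50) and 1977 genes (DESeq2) were called higher, against 1301. Without a filter 1 gene was called lower between the zygote groups, against 0.

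Replicate numbers did not pair the samples. Same-numbered samples deviated together with r between -0.18 and 0.07 in the 2C comparison, where 2 of 6 samples correlated best with their own number. With the replicate number as a block, 0 genes were called higher and 3 lower between the 2C groups, and 0 of the 4 genes passed (Gm8300 -1.46, adjusted p = 0.172 in edgeR). With 8705584 to 17797581 counts a sample, zygote values of Gm5662, Gm8300 and Gm2022 rest on a few counts. Fragments that match relatives equally well were not counted, and Gm5662 and Gm2022 had the fewest coding windows of their own.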
